A study of Mus musculus with 20 samples.

Results

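Chemokine transcripts were followed in embryonic mouse hearts in which Kmt2d had been deleted. The 7 genes described, of 33495 in the deposited table of counts, were taken by symbol and all were found there: Ccl2, Ccl7, Ccl3, Ccl4, Cxcl1 and Cxcl12, which encode ligands, and Cxcr4, which encodes a receptor. Kmt2d encodes a methyltransferase of histone H3 lysine 4. RNA-seq had been performed on 20 libraries from 3 Cre lines. Mesp1Cre is active in mesodermal precursors, Mef2cAHF::Cre in precursors of the anterior heart field and Tnnt2::Cre in cardiomyocytes.

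Mutants were Cre; Kmt2d fl/fl; mTmG/+ and controls were Cre; Kmt2d fl/+; mTmG/+, on a C57BL/6 background. Controls therefore also carried Cre, the mTmG reporter and 1 floxed allele, so each comparison set deletion of both alleles against deletion of 1. Whole hearts were taken at E9.0 for Mesp1Cre (4 mutants and 4 controls) and at E11.5 for Tnnt2::Cre (3 and 3). Right ventricles with outflow tracts were taken at E11.5 for Mef2cAHF::Cre (3 and 3). A general protocol in the labels gives E11.5 for every sample. The tissue was not sorted for cells with active Cre, and in such bulk samples fewer cells of a type and less RNA per cell cannot be told apart.

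Chemokines are small secreted proteins that guide migrating cells through receptors coupled to G proteins, and many are induced in inflammation to recruit leukocytes. Cxcl12 differs in being produced constitutively by stromal cells, and in the embryo it acts through Cxcr4 in the growth of vessels, including the coronary arteries, and in the migration of progenitor cells. Ccl2 and Ccl7 attract monocytes through Ccr2, Ccl3 and Ccl4 attract monocytes and lymphocytes, and Cxcl1 attracts neutrophils through Cxcr2.

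The libraries held 21727258 to 45341870 counted reads each. In Mesp1Cre, Kmt2d (listed as Mll2) was at 128 to 144 CPM (counts scaled to the size of the library) in mutants and at 152 to 164 in controls, and in Tnnt2::Cre at 107 to 116 and 119 to 159. The groups did not overlap in either line, although neither difference passed the test (edgeR adjusted p = 0.0764 and 0.327). In Mef2cAHF::Cre the direction was opposite: the 3 libraries labelled mutant held 187 to 194 CPM and the 3 labelled control 146 to 156 (log2 fold change 0.32, SE 0.06, edgeR adjusted p = 0.0359). The column names of the deposited table also give these 6 libraries the genotype opposite to that of their sample titles. They are therefore named by their label throughout. Read by the column names, every log2 fold change between genotypes in this line takes the opposite sign, and a gene that rose fell, with the same SE and p. The cardiomyocyte genes fixed as markers summed to at least 13385 CPM in every library.

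The promoters of 4 of the 7 genes, Cxcl12, Cxcr4, Cxcl1 and Ccl3, were matched by symbol in a RefSeq table for GRCm38.p6. The 250 bases before the annotated start are shown for Cxcl12, the ligand among the 7 with the most reads, for its receptor, and for Cxcl1, which was near 0 in these hearts, since they place a constitutive and an inducible ligand side by side. Capitals mark matches on either strand to the TATA box (TATAAA), an AP-1 form (TGANTCA), the core of a hypoxia response element (ACGTG) and an NF-kappaB form (GGNNTTTCC).
Cxcl12: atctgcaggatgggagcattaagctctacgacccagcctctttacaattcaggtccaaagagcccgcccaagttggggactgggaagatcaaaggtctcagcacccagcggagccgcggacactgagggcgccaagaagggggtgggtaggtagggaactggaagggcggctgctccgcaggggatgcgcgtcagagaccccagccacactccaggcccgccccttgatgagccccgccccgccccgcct
Cxcr4: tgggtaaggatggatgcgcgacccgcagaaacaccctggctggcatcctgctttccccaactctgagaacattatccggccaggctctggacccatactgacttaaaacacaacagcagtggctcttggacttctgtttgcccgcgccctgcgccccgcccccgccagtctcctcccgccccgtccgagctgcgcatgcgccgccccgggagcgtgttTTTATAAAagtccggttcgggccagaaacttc
Cxcl1: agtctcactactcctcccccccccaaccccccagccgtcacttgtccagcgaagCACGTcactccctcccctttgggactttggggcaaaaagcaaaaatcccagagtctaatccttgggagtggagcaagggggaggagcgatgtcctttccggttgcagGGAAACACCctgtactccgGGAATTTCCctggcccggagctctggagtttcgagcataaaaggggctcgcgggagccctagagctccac

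These windows lie at chr6:117168285-117168534 on the plus strand, chr1:128592300-128592549 on the minus strand and chr5:90890995-90891244 on the plus strand. The Cxcl12 window held 0 matches to the 4 motifs and was 64.4% G or C, against a median of 52.4% over all 32851 promoters of the table. In Cxcr4 the TATA letters began 30 bases before the start, overlapped by a match on the other strand. Cxcl1 held the NF-kappaB form at 70 and 89 bases before the start and the hypoxia core at 196. Of all promoters, 12.4% held the TATA letters, 6.75% the AP-1 form, 16.6% the hypoxia core and 4.93% the NF-kappaB form. The Ccl3 window held 0 matches. These are matches of letters and not measured binding sites.

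**Figure D1:**
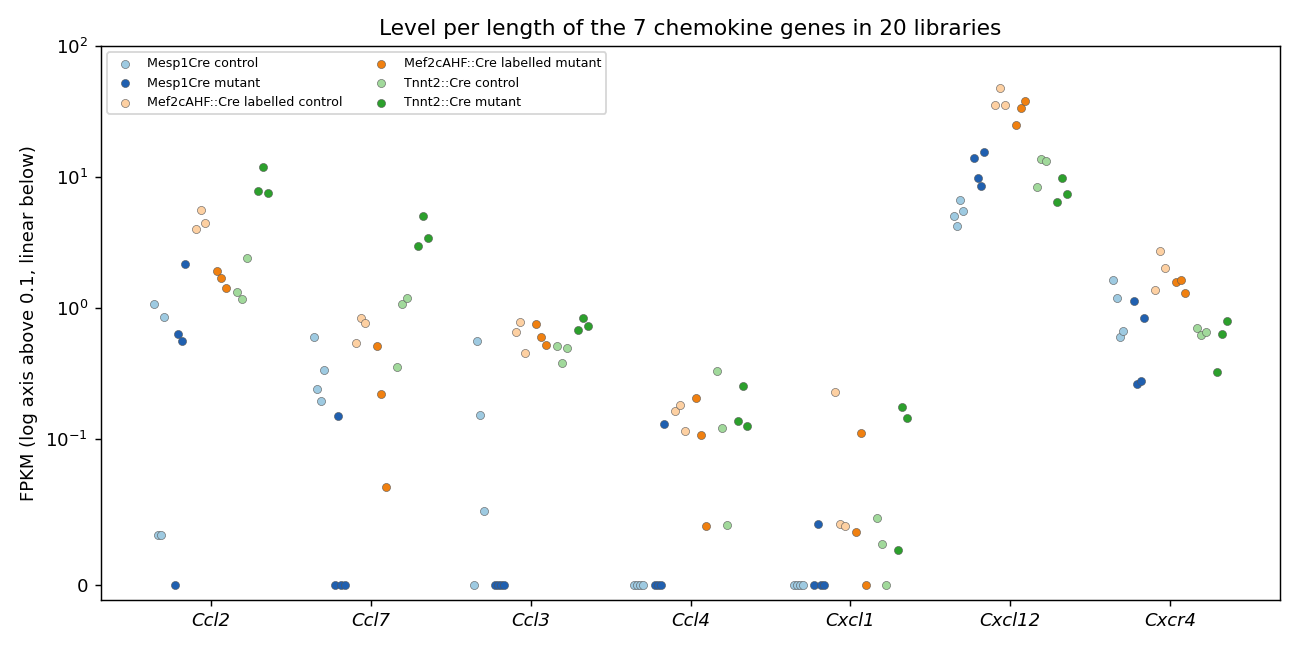
Level per length of each of the 7 genes, in FPKM as deposited, with 1 point per library for 20 libraries in 6 groups; the axis is logarithmic above 0.1 and linear below. Cxcl12 is the highest of the 7 in 17 libraries and Ccl2 in the 3 Tnnt2::Cre mutants, and Ccl4 and Cxcl1 reach at most 0.334 and 0.228.

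Levels of different genes were compared as FPKM, in which reads are divided by gene length and library size. Per length, Cxcl12 was the highest of the 7 genes in 17 of the 20 libraries. In the other 3, the Tnnt2::Cre mutants, Ccl2 was above it, at a mean of 9.12 ± 2.47 FPKM (SD, n = 3). The mean of Cxcl12 was 39.5 ± 7.01 FPKM (SD, n = 3) in the Mef2cAHF::Cre libraries labelled control, 32.1 ± 6.71 in those labelled mutant, 12.0 ± 3.35 (n = 4) in Mesp1Cre mutants, 11.8 ± 2.98 (n = 3) in Tnnt2::Cre controls, 7.89 ± 1.72 (n = 3) in Tnnt2::Cre mutants and 5.40 ± 1.04 (n = 4) in Mesp1Cre controls. The libraries of right ventricle and outflow tract, at 24.8 to 47.6 FPKM, lay above every whole heart library, and neighbours further down this order overlapped in their libraries. Tissue, stage and line cannot be told apart in that order.

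Cxcr4 was lower than its ligand throughout, at group means of 0.590 to 2.06 FPKM. Ccl2 had group means of 0.498 to 9.12 FPKM and Ccl7 of 0.0375 to 3.81 FPKM. The Tnnt2::Cre mutants had the highest mean of both. Ccl3 did not exceed a group mean of 0.753 FPKM, Ccl4 0.174 FPKM or Cxcl1 0.116 FPKM. Ccl4 had 44 reads and Cxcl1 28 reads in the 20 libraries together.

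Not every gene had enough reads to be tested. The filter on low counts kept 3 of the 7 in Mesp1Cre and 5 of 7 in each of the other lines. A gene passed the test in a line where its edgeR adjusted p was under 0.05. In each line 1 of the 7 passed: Cxcl12 rose in Mesp1Cre, where 6.17% of all tested genes rose, and Ccl2 rose in Tnnt2::Cre, where 0.0763% did. In Mef2cAHF::Cre, Ccl2 was lower in the libraries labelled mutant, as were 1.04% of all tested genes past the test. In either direction 1821 of 15883 tested genes passed in Mesp1Cre, 482 of 16920 in Mef2cAHF::Cre and 50 of 17045 in Tnnt2::Cre. Libraries of the genotypes did not overlap in CPM for 1 of the 3 tested members in Mesp1Cre, where 17.7% of all tested genes did not. For Mef2cAHF::Cre the figures were 1 of 5 and 24%, and for Tnnt2::Cre 3 of 5 and 17.1%. The median log2 fold change of the tested members was 0.56 in Tnnt2::Cre, 0.57 in Mesp1Cre, and in Mef2cAHF::Cre -0.31 by the sample titles and 0.31 by the column names, while the median of all tested genes was within 0.01 of 0 in each line. Without adjustment, a p under 0.05 was met by 11.9% of all tested genes in Tnnt2::Cre, 17.9% in Mef2cAHF::Cre and 26.9% in Mesp1Cre, which are the shares to set beside unadjusted counts.

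**Figure D2:**
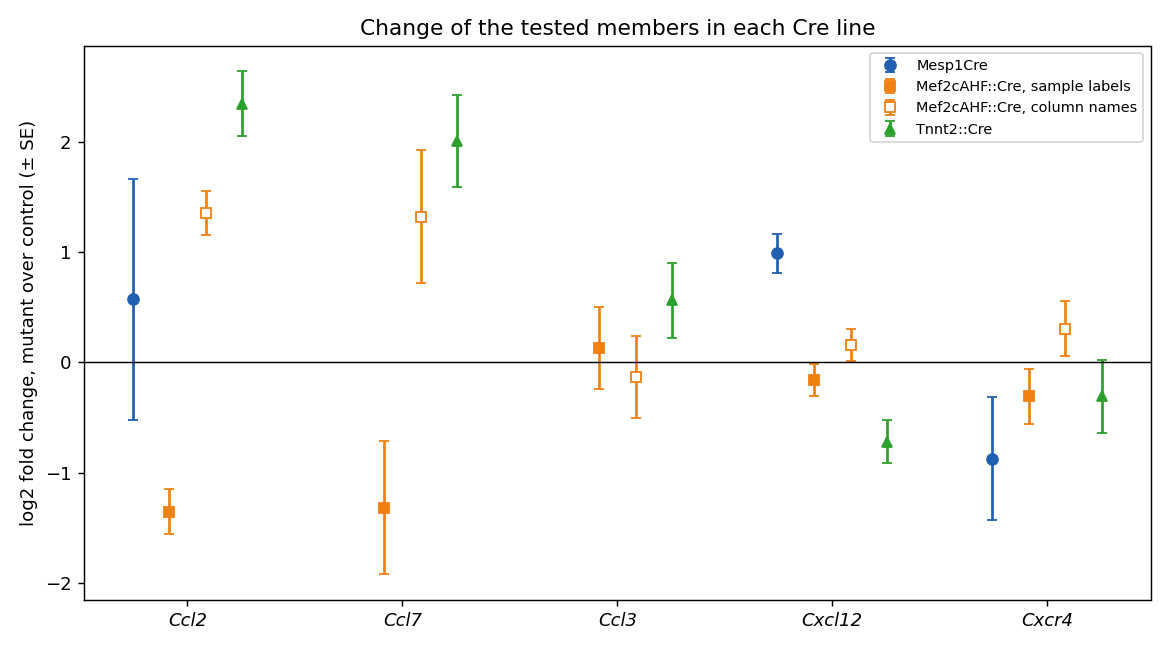
Log2 fold change of mutant over control, with its standard error from edgeR, for the members tested in each Cre line; open squares give the Mef2cAHF::Cre values with the genotypes of the column names. Ccl2 stands at 2.34 in Tnnt2::Cre and at -1.35 or 1.35 in Mef2cAHF::Cre, and Cxcl12 at 0.99 in Mesp1Cre and -0.72 in Tnnt2::Cre.

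Of the ligands of Ccr2, Ccl2 rose in hearts deleted for Kmt2d in cardiomyocytes, and Ccl7, at a 4.01-fold higher level, did not pass the test. Ccl2 (ENSMUSG00000035385, mm9, chr11:81849073-81850955, plus strand) was at 9.40, 12.1 and 8.16 CPM in Tnnt2::Cre mutants 1 to 3 and at 1.55, 1.38 and 2.94 CPM in the controls. Every mutant lay above every control. Ccl2 rose 5.07-fold (log2 fold change 2.34, SE 0.30, edgeR adjusted p = 0.0179), from a mean of 1.96 ± 0.858 to 9.89 ± 2.02 CPM (SD, n = 3 each). The edgeR adjusted p rose to 0.0688 without mutant 3, to 0.128 without control 1 and to 0.0838 without control 2, with log2 fold changes of 2.15 to 2.46. Ccl2 passed in 6 of 13 alternatives, over a range of 4.07e-14 to 0.220.

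Ccl7 (ENSMUSG00000035373, chr11:81859214-81861027, plus strand) lies 8259 bases beyond the end of Ccl2 in the same chemokine cluster. It was at 2.50, 3.59 and 2.60 CPM in the Tnnt2::Cre mutants and at 0.291, 0.886 and 1.02 CPM in the controls. The groups were again apart, with a log2 fold change of 2.00 (SE 0.42), but the edgeR adjusted p was 0.115. It passed in 3 of 13 alternatives, among them the DESeq2 Wald test (adjusted p = 0.000172) and the fit without mutant 1 (edgeR adjusted p = 0.0255), over a range of 0.000172 to 0.338. Ccl12, another ligand of Ccr2 a short way along the cluster, had 32 reads in the 3 mutants and 7 in the 3 controls and was too low to be tested.

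**Figure D3:**
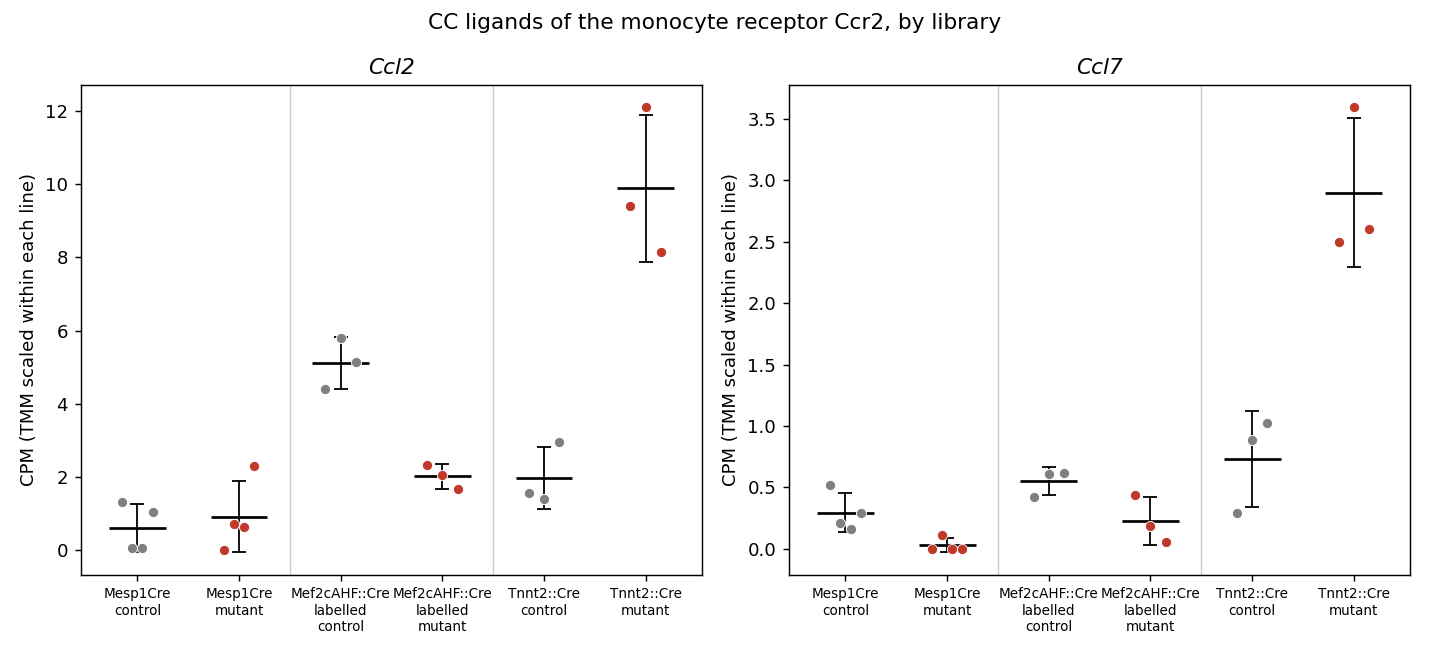
Ccl2 (left panel) and Ccl7 (right panel) in CPM, scaled within each line, with 1 point per library, the group mean as a bar and the SD as error bars. In Tnnt2::Cre the mutants, at 8.16 to 12.1 CPM of Ccl2 and 2.50 to 3.59 of Ccl7, lie above the controls, and in Mef2cAHF::Cre the libraries labelled mutant lie below those labelled control for Ccl2.

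In Mef2cAHF::Cre, Ccl2 also differed, with a direction that depends on which genotype is read. The libraries labelled mutant held 2.33, 2.03 and 1.66 CPM and those labelled control 4.40, 5.81 and 5.15 CPM. The groups did not overlap. By the sample labels Ccl2 fell 2.55-fold (log2 fold change -1.35, SE 0.20, edgeR adjusted p = 0.0140), and by the column names it rose by the same factor (1.35 on the log2 scale), as in Tnnt2::Cre. The edgeR adjusted p was 0.0824 without the library labelled mutant 2 and 0.0536 without that labelled mutant 3, and it passed in 10 of 13 alternatives, over a range of 1.07e-05 to 0.695.

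Ccl7 had few reads in this line, at 12, 5 and 2 in the libraries labelled mutant and 12, 17 and 16 in those labelled control. In CPM the groups overlapped at 0.437 and 0.419. Its log2 fold change was -1.32 (SE 0.60, edgeR adjusted p = 0.295) by the sample titles and 1.32 by the column names.

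In Mesp1Cre hearts at E9.0, Ccl2 was sparse and uneven. The mutants held 0, 18, 14 and 57 reads (0, 0.700, 0.614 and 2.29 CPM) and the controls 35, 1, 1 and 25 (1.30, 0.0420, 0.0403 and 1.03 CPM). Both groups ran from near 0 to over 1 CPM. The log2 fold change of 0.57 had an SE of 1.09 (edgeR adjusted p = 0.786) and was -0.44 without mutant 4.

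Ccl7 in Mesp1Cre was counted at 0, 3, 0 and 0 reads in mutants and 14, 5, 4 and 7 in controls. It did not pass the filter on low counts. The controls held 30 reads and the mutants 3, which, per read counted, was 8.68-fold higher in controls, with an exact 95% interval of 2.70 to 44.4 that covers counting error only. These libraries were amplified and carry no molecular identifiers, so that reads are not independent molecules. In the fit without a filter the difference had an edgeR adjusted p of 0.183.

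The receptor of both ligands, Ccr2, was itself low. It had 0 or 1 read in each Mesp1Cre library. In Tnnt2::Cre it was at 0.329 ± 0.266 CPM in mutants and 0.143 ± 0.0593 CPM in controls (SD, n = 3 each), too low to be tested. In Mef2cAHF::Cre it was at 0.442 ± 0.196 CPM in the libraries labelled mutant and 1.00 ± 0.235 CPM in those labelled control (log2 fold change -1.15 by the sample titles and 1.15 by the column names, SE 0.41, edgeR adjusted p = 0.178). Ackr1 and Ackr2 are atypical receptors that bind inflammatory chemokines without signalling as the others do. Ackr1 passed no test, and Ackr2, with at most 28 reads in any library, was not tested. Ackr1 was uneven in Tnnt2::Cre, at 3.90 ± 4.13 CPM in mutants and 10.5 ± 4.76 CPM in controls (edgeR adjusted p = 0.429).

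Ccl3 (ENSMUSG00000000982, chr11:83461346-83462857, minus strand) and Ccl4 (ENSMUSG00000018930, chr11:83476086-83478185, plus strand) are macrophage inflammatory proteins whose genes lie 13229 bases apart. Ccl3 had 23, 23 and 20 reads in Tnnt2::Cre mutants and 18, 11 and 14 in controls. In CPM the mutants, at 0.532 to 0.578, lay above the controls, at 0.305 to 0.408, but the difference did not pass the test (log2 fold change 0.56, SE 0.34, edgeR adjusted p = 0.558). In Mef2cAHF::Cre, 17, 13 and 15 reads in the libraries labelled mutant and 14, 15 and 9 in those labelled control overlapped (0.13 by the sample titles and -0.13 by the column names, SE 0.37, edgeR adjusted p = 0.903).

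In Mesp1Cre, Ccl3 had 0 reads in each of the 4 mutants and 0, 11, 3 and 1 in the controls. A count of 0 over the 4 mutants allows up to 3 reads, or 0.0327 CPM before scaling. Set against that floor, the ratio of controls to mutants was 4.34. The exact 95% interval of that ratio, which covers counting error only, began lower, at 3.11. Of the 15 control reads 11 came from control 2. Without it the floor gave 1.53-fold and the exact interval began at 0.756, so that a difference was not detectable. Its edgeR adjusted p in the fit without a filter was 0.130.

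Ccl4 did not pass the filter in any line. It had 4, 6 and 3 reads in Tnnt2::Cre mutants and 10, 3 and 1 in controls, 4, 2 and 1 in the Mef2cAHF::Cre libraries labelled mutant and 3, 3 and 2 in those labelled control, and 2 reads, both in mutant 4, over the 8 Mesp1Cre libraries. A difference between genotypes was not detectable at this depth. Among chemokine receptors, Ccr1 was at group means of at most 0.571 CPM and Ccr3 of at most 0.108 CPM. Ccr3 was too low to be tested in any line. Ccr1 was tested in Tnnt2::Cre alone and did not pass (log2 fold change 0.02, SE 0.59, edgeR adjusted p = 0.994).

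**Figure D4:**
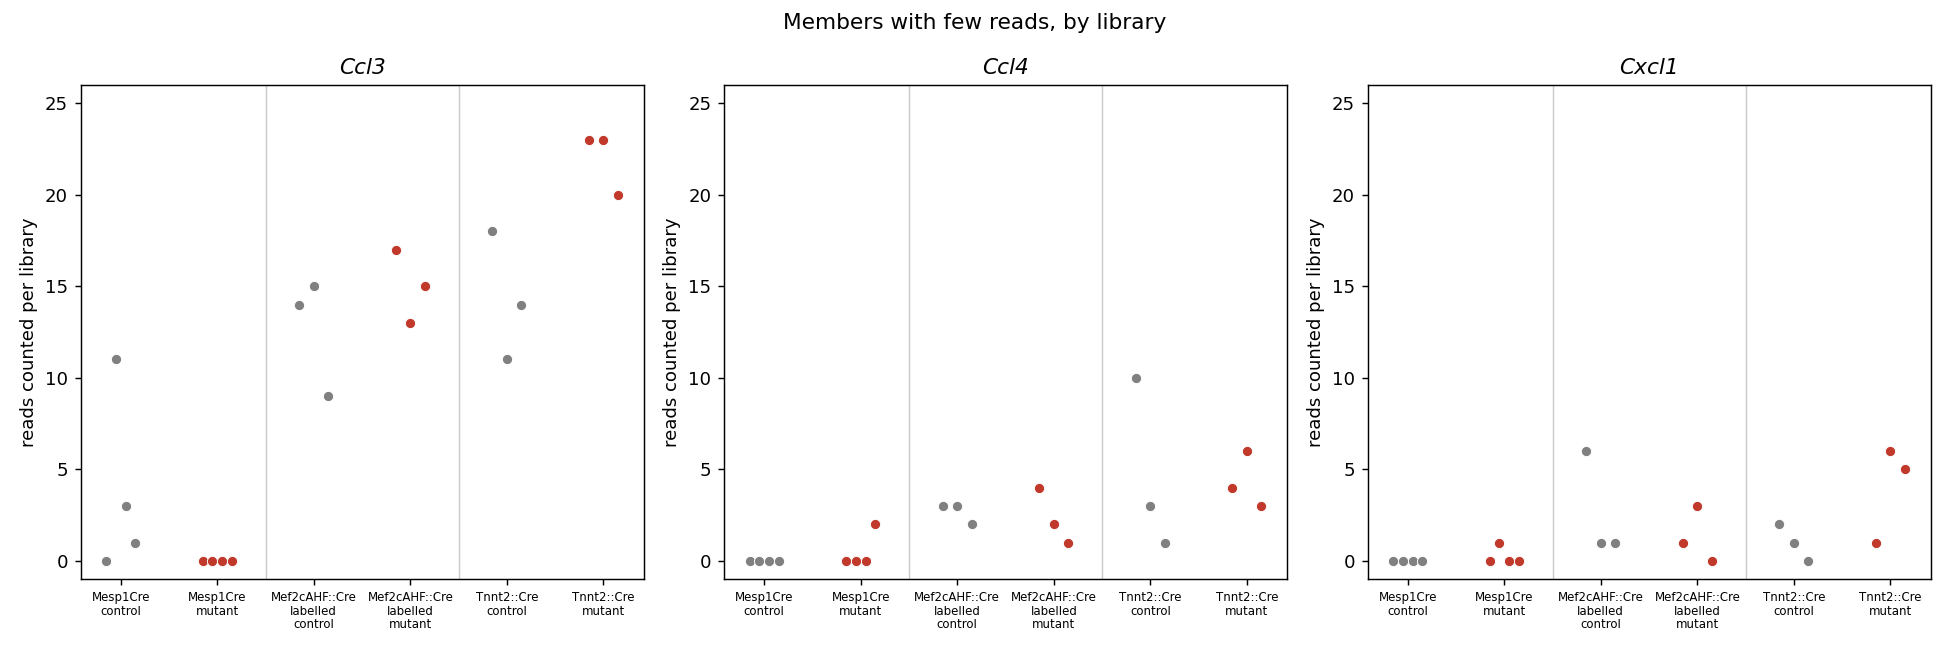
Reads counted in each library for Ccl3, Ccl4 and Cxcl1, with 1 point per library. Ccl3 reaches 23 reads in Tnnt2::Cre mutants and is at 0 in the 4 Mesp1Cre mutants, and Ccl4 and Cxcl1 have at most 10 reads in any library.

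Cxcl1 (ENSMUSG00000029380, chr5:91320267-91322141, plus strand), whose NF-kappaB forms are shown above, was the lowest of the 7. It had 1, 6 and 5 reads in Tnnt2::Cre mutants and 2, 1 and 0 in controls, 1, 3 and 0 in the Mef2cAHF::Cre libraries labelled mutant and 6, 1 and 1 in those labelled control, and 1 read over the 8 Mesp1Cre libraries. It did not pass the filter in any line, and a difference was not detectable at this depth. Its receptor Cxcr2 was at group means of 0.292 to 0.815 CPM. It did not pass in Mef2cAHF::Cre or Tnnt2::Cre and was not tested in Mesp1Cre.

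Cxcl12 (ENSMUSG00000061353, mm9, chr6:117118553-117131385, plus strand) had the most reads of the 7 genes, 82669 in the 20 libraries, and it rose in hearts deleted for Kmt2d in mesoderm. The 4 Mesp1Cre mutants held 107, 78.1, 66.1 and 118 CPM and the 4 controls 44.1, 37.3, 56.8 and 47.9 CPM. The lowest mutant lay above the highest control. The rise was 1.98-fold (log2 fold change 0.99, SE 0.18, edgeR adjusted p = 0.00375), from 46.5 ± 8.11 to 92.4 ± 24.4 CPM (SD, n = 4 each), and the adjusted p was at most 0.0172 over 16 alternatives.

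In Tnnt2::Cre the values of Cxcl12 leaned the other way. Mutants held 55.1, 71.0 and 58.1 CPM and controls 69.9, 117 and 116 CPM. The ranges met, mutant 2 being just above control 1. The log2 fold change of -0.72 (SE 0.20) did not pass the test (edgeR adjusted p = 0.231). It did in the DESeq2 Wald test, 1 of 13 alternatives (adjusted p = 0.0101, range 0.0101 to 0.631).

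In Mef2cAHF::Cre, 214, 290 and 319 CPM in the libraries labelled mutant and 281, 351 and 290 CPM in those labelled control overlapped, with a log2 fold change of -0.16 by the sample titles and 0.16 by the column names (SE 0.15, edgeR adjusted p = 0.625).

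**Figure D5:**
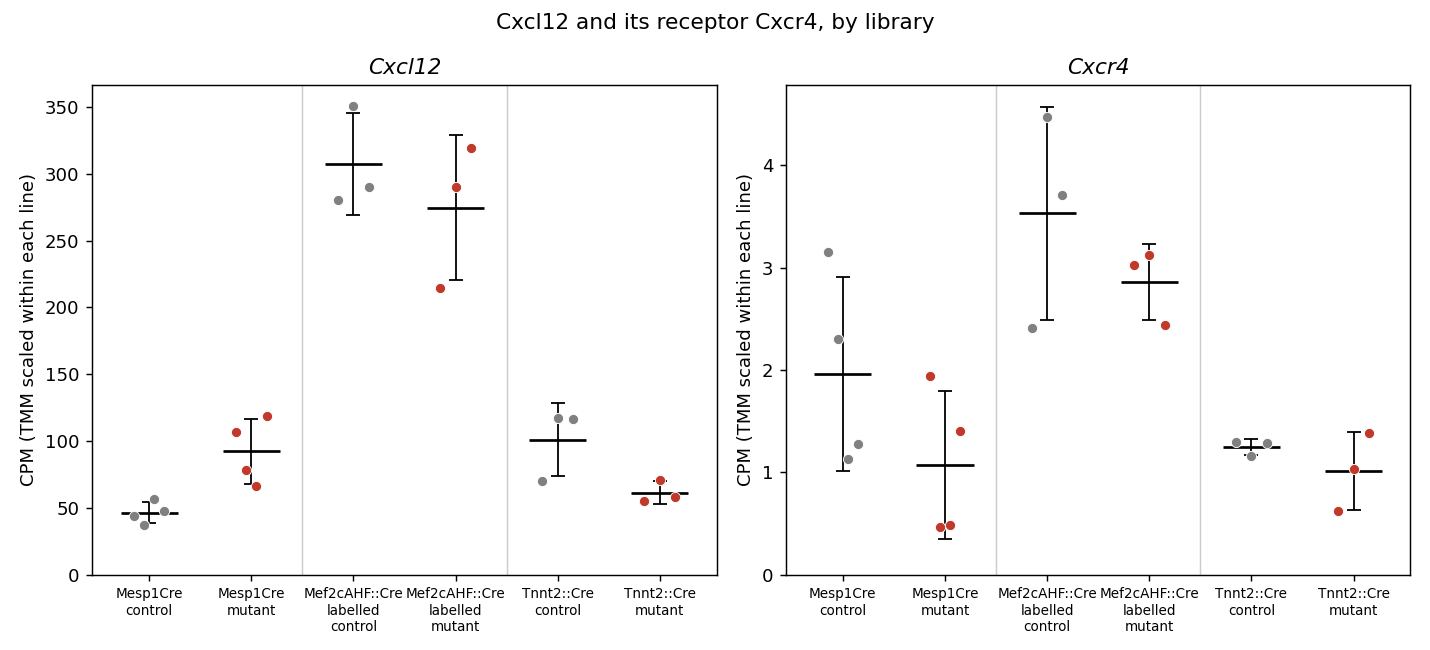
Cxcl12 (left) and Cxcr4 (right) in CPM, scaled within each line, with 1 point per library, the group mean as a bar and the SD as error bars. Cxcl12 in Mesp1Cre mutants, at 66.1 to 118 CPM, lies above the controls at 37.3 to 56.8, while the genotypes overlap in Cxcr4 in each line.

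Cxcr4 (ENSMUSG00000045382, mm9, chr1:130484776-130488870, minus strand), the signalling receptor of Cxcl12, did not pass the test in any line. In Mesp1Cre the mutants held 1.94, 0.467, 0.482 and 1.40 CPM and the controls 3.15, 2.31, 1.13 and 1.28 CPM. The groups overlapped, with a log2 fold change of -0.87 whose SE was 0.55 (edgeR adjusted p = 0.344). In Tnnt2::Cre mutants held 0.619, 1.03 and 1.38 CPM and controls 1.30, 1.16 and 1.28 CPM, a log2 fold change of -0.31 (SE 0.33, edgeR adjusted p = 0.764).

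In Mef2cAHF::Cre the libraries labelled mutant held 3.02, 3.12 and 2.44 CPM of Cxcr4 and those labelled control 2.41, 4.47 and 3.71 CPM. The spread of the second group spanned the first, with a log2 fold change of -0.31 by the sample titles and 0.31 by the column names (SE 0.25, edgeR adjusted p = 0.583).

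Ackr3 (listed as Cxcr7), the atypical receptor that removes Cxcl12 from the extracellular space, was more abundant in reads than Cxcr4. In Mef2cAHF::Cre it was at 35.5 ± 5.17 CPM in the libraries labelled mutant and 22.7 ± 1.68 CPM in those labelled control (SD, n = 3 each). By the sample labels Ackr3 rose (log2 fold change 0.64, SE 0.12, edgeR adjusted p = 0.0279), and by the column names it fell. In Tnnt2::Cre it was at 25.6 ± 4.14 CPM in mutants and 46.1 ± 17.8 CPM in controls (log2 fold change -0.85, SE 0.25, edgeR adjusted p = 0.255). In Mesp1Cre it was at 8.54 ± 2.26 and 8.98 ± 3.41 CPM (SD, n = 4 each, edgeR adjusted p = 0.895).

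Whether a gene changed alike in 2 lines was asked with an interaction contrast, in 1 edgeR model of all 20 libraries that tested 5 of the 7 genes. The change of Cxcl12 in Mesp1Cre exceeded that in Tnnt2::Cre by 1.69 on the log2 scale (SE 0.29, edgeR adjusted p = 0.00517), and it did so in each of 17 alternatives (adjusted p at most 0.0233). It exceeded that in Mef2cAHF::Cre by 1.13 by the sample titles (SE 0.29, edgeR adjusted p = 0.0135). By the column names the difference was 0.81 (SE 0.28) and did not pass (adjusted p = 0.157). Among all tested genes 3.04% passed in the first of these comparisons, 11.3% in the second and 1.63% in the third.

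Ccl7 and Ccl3 had too few reads to be tested in Mesp1Cre alone, and they entered the model of all libraries through those of E11.5, where they were higher, so that their interactions with Mesp1Cre are given as values. For Ccl7 between Mesp1Cre and Tnnt2::Cre the edgeR adjusted p was 0.0146. The 3 reads in the Mesp1Cre mutants mean that its fitted size, -5.11 on the log2 scale, is no bound. For Ccl3 between Mesp1Cre and Mef2cAHF::Cre it was 0.0350 by the sample titles (edgeR), a value that rests on the 0 reads of the Mesp1Cre mutants and on control 2 of that line. Without control 2 its adjusted p was 0.0693, and in 10 of 17 alternatives it did not pass, over a range of 0.0102 to 0.0697. By the column names its adjusted p was 0.112.

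Ccl2 and Ccl7 had interactions of -3.68 (SE 1.06) and -3.28 (SE 0.95) between Mef2cAHF::Cre and Tnnt2::Cre by the sample titles, with edgeR adjusted p of 0.0644 and 0.0641. Of the 5 tested members 0 passed and 2, these same genes, had an unadjusted p under 0.05, as did 15.3% of all tested genes. Both passed in the edgeR fit of all genes with at least 1 count. At the adjusted threshold 3.19% of all tested genes passed. By the column names the differences were -0.98 (SE 1.04) and -0.68 (SE 0.96). Of the 18391 genes 0 (0%) then passed in edgeR, with 472 (2.57%) at an unadjusted p under 0.05, among them Cxcl12 of the 5 members (difference 0.88, SE 0.30).

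Levels were also compared between the whole heart controls of Mesp1Cre at E9.0 and of Tnnt2::Cre at E11.5, where stage and line cannot be told apart. Cxcl12 was lower at E9.0 by -1.21 on the log2 scale (SE 0.20, edgeR adjusted p = 8.47e-05), in a comparison in which 39.6% of all tested genes passed. The other tested members did not pass. Ccl2 was at -1.76 (SE 0.76, edgeR adjusted p = 0.0719), Ccl7 at -1.37 (SE 0.63, 0.0887), Ccl3 at -1.35 (SE 0.73, 0.158) and Cxcr4 at 0.56 (SE 0.45, 0.341). These comparisons share the control libraries with those of the genotypes.

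Of 32 other chemokine ligands, 6 to 11 were tested in a line, and the 2 that passed in a line were Pf4 and Ppbp, both stored in platelets and megakaryocytes. In Mesp1Cre, Pf4 rose from 6.92 ± 3.05 to 61.0 ± 41.5 CPM (log2 fold change 3.14, SE 0.45, edgeR adjusted p = 0.000961) and Ppbp from 0.598 ± 0.605 to 23.5 ± 23.1 CPM (5.28, SE 0.78, adjusted p = 0.00117). In Mef2cAHF::Cre both fell by the sample titles (Pf4 -2.53 and Ppbp -2.29 on the log2 scale, edgeR adjusted p = 0.0366 and 0.0122) and rose by the column names. In Tnnt2::Cre 9 of 10 tested ligands were higher in mutants and 0 passed (edgeR, 3 at an unadjusted p under 0.05). The 3 were Cxcl10, at 0.980 and 0.147 CPM (log2 fold change 2.76, SE 0.51, edgeR adjusted p = 0.0865), Ccl9, at 1.46 and 0.454 CPM (1.68, SE 0.32, edgeR adjusted p = 0.0934), and Ccl6, at 0.647 and 0.229 CPM (1.44, SE 0.63, edgeR adjusted p = 0.413), each in mutants and controls. Cx3cl1, Cxcl16, Ccl25 and Ccl27a, the other ligands above 1 FPKM in several groups, passed no test.

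Platelet markers were read beside them, over 7 genes. Their summed level was 11.6 to 38.3 CPM in Mesp1Cre mutants and 4.70 to 12.6 in controls, with 6 of 6 tested higher in mutants and 0 past the test (edgeR, 1 at an unadjusted p under 0.05). It was 18.9 to 32.6 CPM in the Mef2cAHF::Cre libraries labelled mutant and 59.8 to 132 CPM in those labelled control, with 5 of 7 lower past the test by the sample titles and higher by the column names. These included Treml1 and Gp6, receptors on platelets. The part of these cells in the changes of Pf4 and Ppbp was not tested.

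Macrophage markers, a list of 15 genes, summed to 63.1 to 85.5 CPM in Tnnt2::Cre mutants and 64.4 to 71.2 CPM in controls. The most abundant, Lyz2, was at 23.8 CPM in mutants and 31.0 in controls. Of the 15, 13 were higher in mutants and 0 passed the test (edgeR, 6 at an unadjusted p under 0.05), with Csf1r, the receptor that macrophages need, at 7.52 and 5.30 CPM. In Mef2cAHF::Cre 1 of the 15, Lyz2, was higher in the libraries labelled mutant, and 7 had an unadjusted p under 0.05 (edgeR). Aif1 passed the test (log2 fold change -1.72 by the sample titles and 1.72 by the column names, edgeR adjusted p = 0.0482). The sum was 54.2 to 68.0 CPM in the libraries labelled mutant and 60.6 to 77.0 CPM in those labelled control. In Mesp1Cre it was 7.88 to 16.1 CPM in mutants and 14.1 to 23.7 in controls, 5 of 15 were tested, C1qa was at 0 in the 8 libraries and Lyz2 fell by 3.05 on the log2 scale (SE 0.40, edgeR adjusted p = 0.000464). Neutrophil markers summed to at most 8.98 CPM in any library, most of it Mpo in the E11.5 groups, and passed no test. In Tnnt2::Cre 3 of 3 tested were higher in mutants (edgeR, 2 at an unadjusted p under 0.05, S100a8 at a log2 fold change of 2.52 and S100a9 at 2.07). Their part in the values of Ccl2, Ccl7, Ccl3 and Cxcl1 was not tested.

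Among genes induced by NF-kappaB and cytokines, 0 of 12 tested passed in Mesp1Cre, 0 of 14 in Mef2cAHF::Cre and 0 of 17 in Tnnt2::Cre (edgeR, with 2, 3 and 3 at an unadjusted p under 0.05). Their median log2 fold change was 0.40 in Tnnt2::Cre, 0.15 in Mesp1Cre, and in Mef2cAHF::Cre -0.15 by the sample titles and 0.15 by the column names. In Tnnt2::Cre 15 of the 17 were higher in mutants, among them Vcam1, an adhesion molecule, at 85.5 and 60.6 CPM (edgeR adjusted p = 0.307). Of the immediate early genes 2 of 13 rose in Mesp1Cre, Ier3 and Klf6, 1 of 13, Myc, fell in Mef2cAHF::Cre by the sample titles and rose by the column names, and 0 of 14 passed in Tnnt2::Cre (edgeR, 6 at an unadjusted p under 0.05). In Mef2cAHF::Cre 1 of the 13 was higher in the libraries labelled mutant, and 5 had an unadjusted p under 0.05 (edgeR).

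Genes known to respond to hypoxia, as Cxcl12 and Cxcr4 do in some other tissues, were read beside these 2 members. In Mesp1Cre, Cxcl12 rose and Cxcr4 was at -0.87 on the log2 scale (edgeR adjusted p = 0.344). Of 20 genes 19 rose there, with a median log2 fold change of 1.30, among them Bnip3, a mitochondrial protein (1.90, SE 0.14, edgeR adjusted p = 1.29e-05), and Vegfa, the vascular growth factor (1.65, SE 0.16, adjusted p = 4.35e-05). In Mef2cAHF::Cre 3 of 20 fell by the sample titles and rose by the column names, and 14 had an unadjusted p under 0.05 (edgeR). Of the 20, 1 was higher in the libraries labelled mutant, with a median of -0.76 by the titles and 0.76 by the column names. In Tnnt2::Cre, where Cxcl12 was at -0.72 and Cxcr4 at -0.31, 20 of 20 were higher in mutants and 0 passed (edgeR, 13 at an unadjusted p under 0.05), with a median of 0.64. The part of hypoxia in the chemokine values was not tested.

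Of 7 endothelial markers 2 rose in Mesp1Cre. Kdr, a receptor of Vegfa, rose by 0.74 on the log2 scale (SE 0.08, edgeR adjusted p = 0.000137) and Pecam1 rose by 0.51 (adjusted p = 0.0283), while Tek, a receptor of angiopoietins, was at -0.03, and the list summed to 537 to 633 CPM in mutants and 434 to 513 in controls. In each other line 0 of 7 passed (edgeR, 2 in Mef2cAHF::Cre and 1 in Tnnt2::Cre at an unadjusted p under 0.05). Of mesenchymal markers Col3a1 fell in Mesp1Cre (-0.63, SE 0.19, edgeR adjusted p = 0.0495), 1 of 6 genes, while 3 of the 6 were higher in mutants. Their sums overlapped, at 91.9 to 164 CPM in mutants and 93.8 to 198 in controls. In the other lines 0 of 6 passed (edgeR, 1 in Mef2cAHF::Cre and 3 in Tnnt2::Cre at an unadjusted p under 0.05). Of epicardial markers 0 of 5 passed in each line (edgeR, 0, 3 and 2 unadjusted). Of 8 cardiomyocyte genes 1, Tnni3, passed in Mesp1Cre, where it fell (-0.78), and 3 of the 8 were higher in mutants. The list summed to 23484 to 27959 CPM in these mutants and 21056 to 28871 in controls. Tnni3 alone also passed in Mef2cAHF::Cre. There it rose by the sample titles (1.09), or fell by the column names (-1.09), and 7 of the 8 were higher in the libraries labelled mutant. In Tnnt2::Cre 6 of 8 were higher in mutants and 0 passed (edgeR, 2 at an unadjusted p under 0.05). The part of these cells in the level of Cxcl12 was not tested.

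Red cell RNA took unequal shares of the libraries. The 9 erythroid genes summed to 18511 to 125070 CPM in Tnnt2::Cre mutants and 97779 to 153180 in controls, to 1961 to 7687 CPM in Mesp1Cre mutants and 5521 to 18148 in controls, and to 25552 to 48433 CPM in the Mef2cAHF::Cre libraries labelled mutant and 7435 to 32764 in those labelled control. Of the 9, 5 fell in Mesp1Cre and 2 rose in Mef2cAHF::Cre by the sample titles and fell by the column names, and 0 passed in Tnnt2::Cre (edgeR, 0 at an unadjusted p under 0.05). Their part in the chemokine values was not tested.

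The genes most like each member across the 20 libraries were ranked by Pearson r of log2 CPM after the mean of each line had been taken off, among 12311 expressed genes. The points share lines and genotypes, and r is a description. Nearest to Cxcl12 was Clec14a, a surface protein of endothelial cells (r = 0.85), which also rose in Mesp1Cre (log2 fold change 1.21, edgeR adjusted p = 0.0103), then Zfp799 (0.84) and Smarca2, an ATPase of the SWI/SNF chromatin remodelling complex (0.84). Nearest to Ccl2 were Ppa2 (0.82), Ndel1 (0.80) and Unc50 (0.77), none of which passed the test in any of the 3 lines. Nearest to Cxcr4 were Itpkc (0.84), Shd (0.83) and AC138601.1 (0.80). Between members, Ccl2 and Ccl7 had r = 0.43, Cxcl12 and Cxcr4 -0.12, and Cxcl12 and Ccl7 -0.59. Ccl7 had at most 14 reads in any Mesp1Cre library and 0 in 3 libraries, and Ccl2 ran from 0 to 57 reads in the Mesp1Cre mutants. The r values of these 2 genes therefore rest in part on counts near 0.

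The reads of the 7 genes could be assigned without ambiguity as far as the annotation shows. In the GENCODE annotation of mm9, 0 of the 7 overlap an exon of another gene on either strand, and 0 of the stretches of 50 bases in their coding transcripts occur in a transcript of another coding gene.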

How the data were processed

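RNA was measured in 20 heart libraries made with NuGEN amplification kits. Per the labels and the methods, reads were aligned to mm9 (TopHat2 2.0.8b is named in the submitters' processing notes) and counted per gene. The authors deposited unnormalized counts and an FPKM computed with USeq. A further 20 columns of variance-stabilised log2 values were not used. Whether counting used strand was not given in the sources used here. Samples were grouped by title and genotype.

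Each line was fitted by itself with edgeR 4.0.16 in R 4.3.3 (filterByExpr, TMM, quasi-likelihood F test, Benjamini-Hochberg adjustment over all genes tested, threshold 0.05). CPM are after TMM within a line. The SE is the log2 fold change divided by the square root of F. Interactions used 1 fit of 6 groups. The fits were also run on simulated counts in which only well-counted genes were changed, which does not cover the members with few reads. Alternatives were DESeq2 1.42.0, limma 3.58.1 on log2(FPKM + 0.1) and log2(FPKM + 1), fits without a filter, the 6-group fit, blocks by replicate number or by a code shared in the Mesp1Cre labels, and each library left out. The labels do not state litters, and p-values measure the spread between these libraries.

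The members and lists were chosen with earlier results of these data known. Named are the members, their receptors, up to 4 genes of each other list (those past the threshold with the lowest adjusted p, otherwise the most abundant), and the 3 genes most like each member with a mean of at least 1 CPM. Some receptor values are not reported here. Ccl12, Cx3cl1, Cxcl16, Ccl25, Ccl27a, Cxcl10, Ccl9, Ccl6, S100a8, S100a9, Tek and C1qa were named after their values were seen.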

Additional observations from a re-analysis of the deposited data

Results flagged for a closer look

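In a group of 4, 1 library stood apart in 3 cases, all in Mesp1Cre mutants and all at 3 reads or fewer. The gap to the nearest other library was the whole range (a ratio of 1) for Ccl7, where mutant 2 had 3 reads and the others 0, for Ccl4, where mutant 4 had 2 reads, and for Cxcl1, where mutant 2 had 1 read. Where the others are all at 0 this ratio is 1 whatever the count, so at 1 to 3 reads it marks no outlier.

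In 4 cases the edgeR interaction test between lines passed the threshold. For Cxcl12 the difference was 1.69 on the log2 scale between Mesp1Cre and Tnnt2::Cre, and 1.13 between Mesp1Cre and Mef2cAHF::Cre by the sample labels. For Ccl7 it was fitted at -5.11 between Mesp1Cre and Tnnt2::Cre, and for Ccl3 at -5.36 between Mesp1Cre and Mef2cAHF::Cre by the sample labels. The last 2 are no bounds and are given as values only, since the Mesp1Cre mutants had 3 and 0 reads and both genes passed the filter only through the E11.5 libraries.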

How the results depend on the processing

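The rise of Cxcl12 in Mesp1Cre passed the test under each of the 16 alternatives, and its difference from Tnnt2::Cre under each of 17. The number of members past the test in the fit of 6 groups was 3 in Mesp1Cre, 0 in Mef2cAHF::Cre and 0 for Tnnt2::Cre. It was 2 in Mesp1Cre and 0 in Tnnt2::Cre with limma on log2(FPKM + 0.1), and 0 in Tnnt2::Cre on log2(FPKM + 1). Where these counts are 0, the members at an unadjusted p under 0.05 numbered 0 in Mef2cAHF::Cre, and in Tnnt2::Cre 3 with edgeR and 4 with limma. In Tnnt2::Cre it was 3 with DESeq2 and 2 without a filter. Without a filter it was also 2 between Mef2cAHF::Cre and Tnnt2::Cre, and 3 between the controls. Beyond Cxcl12, the members past the test in Mesp1Cre were Ccl7 and Ccl3 in the fit of 6 groups, and Ccl7 with limma. Ccl7 and Ccl3 had 3 and 0 reads in the mutants, and the fit of 6 groups tested them only through the E11.5 libraries. The causes were not tested. Replicate numbers did not pair the libraries (correlations of same-numbered libraries from -0.04 to 0.18), and with the replicate block 0 members passed in Tnnt2::Cre (Ccl2 at edgeR adjusted p = 0.0631), with no other call on a member changed.

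With the column names, the log2 fold changes in Mef2cAHF::Cre were 1.35 for Ccl2, 1.32 for Ccl7, -0.13 for Ccl3, 0.16 for Cxcl12 and 0.31 for Cxcr4. The difference from Mesp1Cre was then -0.81 for Ccl2, with 0 members past the test (edgeR, with 3 at an unadjusted p under 0.05). The difference of Cxcr4 between Mef2cAHF::Cre and Tnnt2::Cre was -0.0026 with DESeq2 size factors and -0.0046 without a filter.

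With 1 library left out, 0 to 1 members passed in Mef2cAHF::Cre, 0 to 2 in Tnnt2::Cre, 1 to 2 between Mesp1Cre and Mef2cAHF::Cre, 0 to 1 between Mef2cAHF::Cre and Tnnt2::Cre and 1 to 3 between the controls. The log2 fold change of Ccl2 in Mesp1Cre ran from -0.44 to 1.27, that of Ccl3 in Mef2cAHF::Cre from -0.031 to 0.27, and the Cxcr4 difference between Mef2cAHF::Cre and Tnnt2::Cre from -0.25 to 0.30. Between controls Ccl2 and Ccl7 passed without Mesp1Cre control 1 (edgeR adjusted p = 0.0284 and 0.0456), Ccl7 without Tnnt2::Cre control 1 (0.0429) and Ccl3 without Mesp1Cre control 2 (0.00527). The Ccl7 difference between Mef2cAHF::Cre and Tnnt2::Cre passed without the library labelled mutant 1 (0.0458), and the Ccl3 difference between Mesp1Cre and Tnnt2::Cre without Mesp1Cre control 1 (0.0211) or 4 (0.0482).

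Over all genes, Tnnt2::Cre had 50 past the threshold, against 360 with DESeq2, 120 without a filter, 82 in the fit of 6 groups, 28 with the replicate block, and 4 and 5 with limma at pseudocounts of 0.1 and 1. Mef2cAHF::Cre had 482, against 1079, 1311 and 129 under the first 3 of these and 115 and 84 with limma. Mesp1Cre had 1821, against 3593 in the fit of 6 groups. With 1 library left out, the count ran from 4 (without control 3) to 896 (without mutant 1) in Tnnt2::Cre, from 75 (without the library labelled mutant 2) to 662 (without that labelled control 2) in Mef2cAHF::Cre, and from 1052 (without mutant 1) to 2161 (without mutant 2) in Mesp1Cre, and the shares of all genes given beside the members rest on these counts. By the column names the genes past the threshold in the difference between Mesp1Cre and Mef2cAHF::Cre went from 2076 to 299, and in that between Mef2cAHF::Cre and Tnnt2::Cre from 586 to 0 (edgeR, with 472 at an unadjusted p under 0.05). Ccl4 and Cxcl1 had too few reads to pass the filter in any line.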
